A study of Mus musculus with 12 samples.

Results

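The genes described here are 37 genes of homologous recombination, of the Fanconi anemia pathway, of the DNA damage checkpoint and of a few repair steps beside them, out of 46983 genes in the table. They were chosen by symbol from a fixed list, which was made with earlier results of these data known. Each of the 37 symbols matched 1 Ensembl gene. RNA was sequenced from C2C12, a mouse myoblast line that fuses into myotubes when it differentiates. The 4 groups were WT_0d and WT_5d, the cells that the labels call wild type and PbIP, after the PiggyBac vector PB-IP, and PPARγ/+_0d and PPARγ/+_5d, the cells that carried this vector with the PPARγ coding sequence, each harvested undifferentiated (0d) and on day 5 of differentiation (5d). Each group had 3 libraries, 12 in all. Every group shares the cell line. The study's methods describe transfection and puromycin selection for the PPARγ cells and neither for the controls, while its results call the controls a PB-IP group. Whether the controls went through these steps is not stated. The part of these steps thus cannot be told apart from that of PPARγ in a comparison of the cell types. The design text given with the series calls the PPARγ cells inducible and the controls uninduced.

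All cells that divide must copy their DNA and mend the breaks and stalled forks that copying leaves. In homologous recombination the MRN complex and EXO1 trim a broken end, BRCA1, PALB2 and BRCA2 prepare the single strand, and RAD51B, RAD51C, RAD51D, XRCC2, XRCC3 and the RAD54 proteins help it pair with the sister chromatid, which exists only after replication. The Fanconi core complex attaches ubiquitin to FANCD2 and FANCI where a crosslink blocks a fork, and the kinases ATM and ATR with CHEK2 and CHEK1 halt the cycle until repair is done. Many of these genes are known to be transcribed mainly in S and G2 phase under E2F factors, and myoblasts are known to leave the cell cycle as they differentiate.

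Values are FPKM, fragments per gene divided by a length of the gene and by library depth. For most genes this length was that of all annotated exons together, which can exceed the length of the transcript in use. Levels of different genes can therefore be set side by side only roughly, while those of 1 gene share its length in all libraries. The mapped fragments of a library, recovered from the values themselves, lay between 18581300 and 26073153. The fewest fragments on a member in any library was 6, for Atrip, and 16 for the other members, so that no value rested on fewer than the 3 fragments used here as a floor, which covers counting error only. All fold changes were computed on log2(FPKM + 0.1), a scale that understates the change of genes near or under 0.1 FPKM. All 37 members passed the filter, which asked for 0.1 FPKM or more in 3 or more of the 12 libraries. Pparg, the gene that was overexpressed, was at 6.53 ± 1.27 FPKM (SD, n = 3) in WT_0d, 3.75 ± 0.760 in WT_5d, 39.6 ± 10.1 in PPARγ/+_0d and 58.9 ± 29.3 in PPARγ/+_5d. It was 5.92-fold higher in PPARγ/+ cells on 0d (adjusted p of limma = 0.00148) and 14.4-fold higher on 5d (adjusted p = 1.73e-04). Of the 7 muscle markers, Myod1, Myog, Myh3, Ckm and Acta1 rose from 0d to 5d in WT cells and Myf5 fell, and in PPARγ/+ cells 6 rose and 0 fell. Their summed level lay between 839 and 3621 FPKM in the WT_5d libraries and between 971 and 1135 FPKM in PPARγ/+_5d. Of the 6 adipocyte markers, Fabp4, Plin1, Adipoq and Cfd rose in PPARγ/+ cells and none in WT cells. Markers of endothelial, epithelial, leukocyte and pluripotent cells were at or near 0, with sums of at most 0.402 FPKM in any library for 3 of these lists, while the leukocyte list reached 5.09 FPKM through Cd68, with Ptprc and Adgre1 at no more than 0.0143 FPKM.

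Promoter stretches of 6 members are shown because E2F factors and the CCAAT-binding factor NF-Y are the classical regulators of cell cycle genes and because the members moved together with the day. They were read from RefSeq promoter windows of GRCm38.p6, which reach from 250 bases before to 50 bases after a transcript start, and are written 5′ to 3′ on the strand of the gene, without any base of an annotated exon of that gene. Capitals mark E2F core letters in the form TTCCCGC, the form TTCGCGC, the form TTGCCGC or the form TTGGCGC, or the reverse complement of any of them. They also mark CCAAT and its reverse complement, which reads ATTGG. Topbp1 (chr9:103305147-103305214, plus strand), Blm (chr7:80535120-80535178, minus strand), Chek2 (chr5:110839803-110839978, plus strand) and Fancb (chrX:164980412-164980591, plus strand) are members that fell from 0d to 5d in both cell types. Fancm (chr12:65075423-65075602, plus strand) and Xrcc3 (chr12:111813880-111814059, minus strand) are members that were lower on 5d in both, but by less than 2-fold.
Topbp1: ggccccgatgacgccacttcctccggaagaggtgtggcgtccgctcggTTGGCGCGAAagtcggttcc
Blm: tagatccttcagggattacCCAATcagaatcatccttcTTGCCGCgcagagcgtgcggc
Chek2: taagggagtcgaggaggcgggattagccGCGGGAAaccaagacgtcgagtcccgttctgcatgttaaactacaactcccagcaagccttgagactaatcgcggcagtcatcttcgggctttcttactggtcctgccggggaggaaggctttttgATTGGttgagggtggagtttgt
Fancb: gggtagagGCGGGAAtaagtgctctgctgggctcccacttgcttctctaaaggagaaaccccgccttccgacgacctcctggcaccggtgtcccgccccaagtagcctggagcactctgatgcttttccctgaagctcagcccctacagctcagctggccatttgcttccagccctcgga
Fancm: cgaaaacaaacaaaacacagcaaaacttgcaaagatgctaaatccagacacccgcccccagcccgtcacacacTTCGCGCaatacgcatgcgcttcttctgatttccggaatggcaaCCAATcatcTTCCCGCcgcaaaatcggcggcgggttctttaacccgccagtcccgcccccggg
Xrcc3: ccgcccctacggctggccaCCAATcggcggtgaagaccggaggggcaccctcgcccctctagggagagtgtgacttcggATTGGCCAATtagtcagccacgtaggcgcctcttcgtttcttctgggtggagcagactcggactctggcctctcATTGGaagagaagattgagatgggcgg
In Topbp1 the capitals hold 2 overlapping E2F matches, read on opposite strands. Fancm, which was lower on 5d by less than 2-fold, held 2 E2F matches, and Xrcc3 held 6 CCAAT matches in its whole window and no E2F core. The stretches shown are examples. Palb2, Rad51b, Rad54l and Fanca also fell in both cell types and held no E2F core letters in their windows.

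RefSeq windows were at hand for 30 of the 37 members, with 34 windows in all. Those of Rad51d, Xrcc2, Rad54b, Exo1, Rad50, Nbn and Fancd2 were not used here. E2F core letters stood in a window of 19 of the 30 members (63.3%), and in 10.9% of all 27025 genes with a window of the same length. Among the members with a window, they stood in 12 of the 16 that fell in both cell types and in 5 of the 12 that fell in neither. To fall in neither means here a change short of 2-fold, which need not be no change. Of those 5, Rmi1, Xrcc6, Fancm and Atm were lower in WT cells (adjusted p of limma 0.0161, 0.0022, 0.00712 and 0.0138). Fancg was not shown to be (0.635). CCAAT on either strand was found in 21 of the 30 members (70.0%), against 41.1% of all genes, and stood in 10 of the 16 that fell in both and 9 of the 12 that fell in neither. The CHR letters TTTGAA or TTCGAA, which mark many genes of G2 and mitosis, were found in 3 of the 30 members (10%), against 21.7% of all genes. The windows were not matched for base composition, and a match is a run of letters, not a bound site.

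In both cell types the members were lower on 5d than on 0d. A gene is said here to have fallen or risen between the days when limma gave an unadjusted p no higher than 0.05 and the change was 2-fold or more, the thresholds of the study. In WT cells 22 of the 37 members fell and 0 rose, where 7.53% of the 18023 genes tested fell and 8.94% rose. In PPARγ/+ cells 20 members fell and 0 rose, where 6.06% of all genes tested fell and 9.11% rose. Since the list was made with earlier results of these data known, these counts describe it and are no independent test. The same 20 members fell in both cell types, Msh6 and Pms2 fell in WT cells and did not pass the fold in PPARγ/+ cells, and 15 members passed in neither. The fitted difference was negative for all 37 members in each cell type, against 55.5% of all genes in WT cells and 56.6% in PPARγ/+ cells. The median log2 fold change of the members in WT cells was -1.19, that in PPARγ/+ cells was -1.05, and that of all genes tested was -0.08 and -0.10.

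Without a minimum fold, at an adjusted p of at most 0.05, 31 members were lower in WT cells (23.0% of all genes) and 31 in PPARγ/+ cells (28.8%). The 3 libraries on 5d lay wholly below the 3 on 0d for 32 members in WT cells (30.9% of all genes) and for 35 in PPARγ/+ cells (34.4%). The order of the members was much alike in the 2 cell types, with a Pearson r of 0.987 and a Spearman rho of 0.978 between their log2 changes over the 37 genes, given as a description since the genes share libraries. Between the level on 0d and the change in WT cells the rho over the members was 0.00925. In bulk RNA, fewer cells of a type and less RNA per cell cannot be told apart.

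Markers of cycling cells moved with the members. Of 19 such markers 18 fell and 0 rose in WT cells, and 18 fell and 0 rose in PPARγ/+ cells, with medians of -3.20 and -2.85 on the log2 scale. Ccnb1, the cyclin of entry into mitosis, had the largest fall of them, -3.98 and -3.96. E2f1 was the marker that did not pass, with log2 fold changes of -0.49 and -0.12. The summed level of the 19 markers lay between 587 and 769 FPKM in the WT_0d libraries and between 97.1 and 125 FPKM in WT_5d, and between 504 and 763 FPKM in PPARγ/+_0d and between 114 and 124 FPKM in PPARγ/+_5d. The share of the members' change that goes with these markers was not tested.

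**Figure D1:**
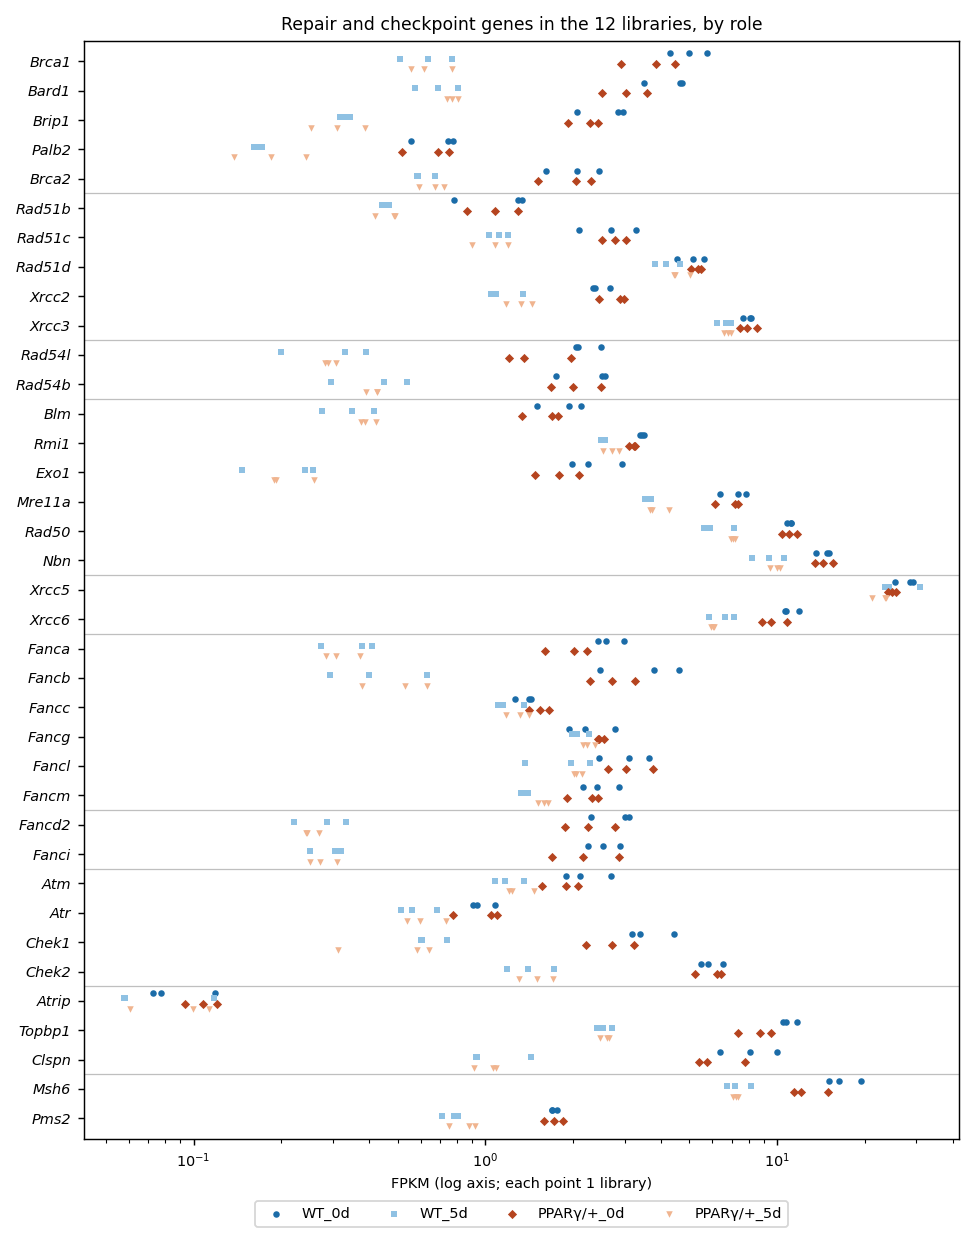
FPKM of the 37 members (rows, grouped by role between grey lines) on a log axis, with each point 1 library and 3 libraries in each of the 4 groups. The points on 5d lie left of those on 0d by the widest gap for members such as Exo1 and Fancd2, while those of Xrcc5, Fancc, Fancg and Atrip intermix or nearly touch.

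The BRCA genes, which act at broken DNA ahead of strand exchange, all fell in both cell types. Brca1 (ENSMUSG00000017146, chr11:101488764-101551955, minus strand), a ubiquitin ligase that acts early at breaks, was at 4.29, 4.98 and 5.77 FPKM on 0d and 0.768, 0.638 and 0.509 FPKM on 5d in WT cells. It was at 4.46, 2.92 and 3.83 FPKM on 0d and 0.616, 0.556 and 0.769 FPKM on 5d in PPARγ/+ cells. The highest library on 5d, at 0.769 FPKM, lay well below the lowest on 0d, and the level fell by 2.80 ± 0.19 (SE) on the log2 scale in WT cells, or 6.95-fold, and by 2.35 ± 0.19 in PPARγ/+ cells (adjusted p of limma = 0.00027 and 0.000158). Bard1 (ENSMUSG00000026196, chr1:71027498-71103146, minus strand), the obligate partner of BRCA1, was at 3.5, 4.71 and 4.66 FPKM on 0d and 0.687, 0.806 and 0.574 FPKM on 5d in WT cells and at 3.59, 2.51 and 3.04 FPKM on 0d and 0.767, 0.74 and 0.808 FPKM on 5d in PPARγ/+ cells. It fell by 2.47 ± 0.19 and 1.84 ± 0.15 on the log2 scale, and of all members it had the largest gap between the 2 changes. Brip1 (ENSMUSG00000034329, chr11:86058138-86201193, minus strand), the helicase FANCJ that binds BRCA1, was at 2.07, 2.85 and 2.96 FPKM on 0d and 0.342, 0.327 and 0.318 FPKM on 5d in WT cells and at 2.44, 1.92 and 2.29 FPKM on 0d and 0.311, 0.387 and 0.253 FPKM on 5d in PPARγ/+ cells. It fell 6.28-fold and 5.57-fold.

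The bridging proteins of this group had smaller falls. Palb2 (ENSMUSG00000044702, chr7:122107262-122132985, minus strand), which joins BRCA1 to BRCA2, was the lowest of the group, at 0.555, 0.772 and 0.747 FPKM on 0d and 0.171, 0.169 and 0.161 FPKM on 5d in WT cells and 0.748, 0.517 and 0.686 FPKM on 0d and 0.138, 0.184 and 0.242 FPKM on 5d in PPARγ/+ cells. It fell by 1.55 ± 0.21 and 1.39 ± 0.23 on the log2 scale, with no overlap between the days in either cell type. The pseudocount of 0.1 shrinks these falls at such low levels. The mean of Palb2 on 5d was 24.2% and 28.9% of that on 0d, and that of Bard1 16.1% and 25.3%. Brca2 (ENSMUSG00000041147, chr5:150522630-150570329, plus strand), which acts on the resected single strand, went from 2.04 ± 0.422 to 0.614 ± 0.0512 FPKM (SD, n = 3) in WT cells and from 1.95 ± 0.408 to 0.663 ± 0.0647 in PPARγ/+ cells. With 1 in place of 0.1 as the pseudocount, neither Palb2 nor Brca2 passed the minimum fold in either cell type.

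The 5 genes Rad51b, Rad51c, Rad51d, Xrcc2 and Xrcc3, paralogs whose proteins form 2 complexes that assist strand exchange, split into 3 that fell and 2 that did not pass. Rad51c (ENSMUSG00000007646, chr11:87376645-87404954, minus strand), the member that both paralog complexes share, was at 2.09, 2.7 and 3.29 FPKM on 0d and 1.19, 1.11 and 1.03 FPKM on 5d in WT cells and 3.04, 2.51 and 2.78 FPKM on 0d and 1.2, 0.902 and 1.08 FPKM on 5d in PPARγ/+ cells. It fell 2.28-fold and 2.49-fold, and was the member with the most negative difference between the cell types in the change, -0.13. Rad51b (ENSMUSG00000059060, chr12:79297282-79814690, plus strand) went from 1.14 ± 0.308 to 0.451 ± 0.0135 FPKM in WT cells and from 1.08 ± 0.214 to 0.464 ± 0.0392 in PPARγ/+ cells. Xrcc2 (ENSMUSG00000028933, chr5:25689812-25705825, minus strand) went from 2.46 ± 0.183 to 1.16 ± 0.165 FPKM and from 2.77 ± 0.286 to 1.31 ± 0.135. Both stood close to the minimum fold, at 2.2 and 2.05-fold in WT cells and 2.07 and 2.03-fold in PPARγ/+ cells. Xrcc2 dropped below it without any 1 of WT_0d_2, WT_5d_1, WT_5d_2, PPARγ/+_0d_1, PPARγ/+_0d_3 and PPARγ/+_5d_1, with log2 fold changes between -0.99 and -0.95. Rad51b dropped below it in PPARγ/+ cells without PPARγ/+_0d_1 (-0.92) or PPARγ/+_5d_2 (-0.99). With a pseudocount of 1, Rad51c (-0.80 and -0.87), Rad51b (-0.55 and -0.50) and Xrcc2 (-0.68 and -0.71) missed the minimum fold in both cell types.

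The other 2 paralogs kept most of their level. Rad51d (ENSMUSG00000018841, chr11:82876434-82890614, minus strand) was at 5.15, 4.54 and 5.59 FPKM on 0d and 3.83, 4.14 and 4.63 FPKM on 5d in WT cells, where the days overlapped, and at 5.46, 5.35 and 5.07 FPKM on 0d and 5.01, 4.47 and 4.43 FPKM on 5d in PPARγ/+ cells, where they did not. Its log2 fold changes were -0.27 ± 0.12 (SE) and -0.19 ± 0.08. Xrcc3 (ENSMUSG00000021287, chr12:111803192-111813873, minus strand), whose promoter with its CCAAT matches is shown above, was at 8.04, 7.61 and 8.17 FPKM on 0d and 6.97, 6.24 and 6.66 FPKM on 5d in WT cells and 7.9, 8.56 and 7.46 FPKM on 0d and 6.77, 6.58 and 6.93 FPKM on 5d in PPARγ/+ cells. Each library on 5d was below each on 0d in both, yet the log2 fold changes were -0.26 ± 0.08 and -0.23 ± 0.07 (adjusted p = 0.0492 and 0.0323). The exons of Xrcc3 share 12 bases with those of Klc1 on the opposite strand.

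Both RAD54 genes fell. Rad54l (ENSMUSG00000028702, chr4:116094264-116123690, minus strand), a translocase that drives strand exchange, was at 2.05, 2.08 and 2.49 FPKM on 0d and 0.331, 0.39 and 0.199 FPKM on 5d in WT cells and 1.96, 1.2 and 1.36 FPKM on 0d and 0.282, 0.29 and 0.307 FPKM on 5d in PPARγ/+ cells. The 3 PPARγ/+_0d libraries lay below the 3 WT_0d libraries, and the falls were 2.53 ± 0.24 (SE) and 2.01 ± 0.21 on the log2 scale. With a pseudocount of 1 Rad54l missed the minimum fold in PPARγ/+ cells (-0.94). Rad54b (ENSMUSG00000078773, chr4:11558922-11615805, plus strand), its paralog, was at 1.75, 2.56 and 2.5 FPKM on 0d and 0.448, 0.538 and 0.296 FPKM on 5d in WT cells and 2.49, 1.68 and 2 FPKM on 0d and 0.425, 0.426 and 0.391 FPKM on 5d in PPARγ/+ cells. It fell 4.52-fold and 4.15-fold, with the groups of the 2 cell types overlapping on each day. Rad54b shares 2068 exon bases with Fsbp on its own strand, a gene with a mean of 0.167 FPKM over the libraries, and Rad54l shares 1184 with Lrrc41 on the opposite strand (10.7 FPKM), so that some of their fragments could belong to either gene. Whether the authors' counting used the strand is not given in the sources used here.

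Among the genes of end resection and of the BLM complex, Exo1 and Blm fell and the MRN genes did not pass. Exo1 (ENSMUSG00000039748, chr1:175880581-175913489, plus strand), the exonuclease of long-range resection, was at 1.98, 2.25 and 2.93 FPKM on 0d and 0.256, 0.24 and 0.146 FPKM on 5d in WT cells and 2.09, 1.48 and 1.78 FPKM on 0d and 0.189, 0.26 and 0.192 FPKM on 5d in PPARγ/+ cells. Its mean on 5d was 8.97% of that on 0d in WT cells and 12% in PPARγ/+ cells, and its fall of 2.99 ± 0.24 (SE) on the log2 scale was the largest of all members in WT cells. Blm (ENSMUSG00000030528, chr7:80454733-80535119, minus strand), the helicase that dissolves joint molecules, went from 1.86 ± 0.318 to 0.346 ± 0.0704 FPKM (SD, n = 3) in WT cells and from 1.6 ± 0.237 to 0.395 ± 0.0254 in PPARγ/+ cells, a fall of 4.38-fold and 3.42-fold. In PPARγ/+ cells Blm missed the minimum fold with a pseudocount of 1 (-0.90). Rmi1 (ENSMUSG00000035367, chr13:58402248-58411148, plus strand), a scaffold of the same complex, was at 3.45, 3.49 and 3.38 FPKM on 0d and 2.57, 2.49 and 2.56 FPKM on 5d in WT cells and 3.09, 3.26 and 3.24 FPKM on 0d and 2.88, 2.54 and 2.72 FPKM on 5d in PPARγ/+ cells. The days did not overlap for Rmi1, but its log2 fold changes were small, -0.42 ± 0.10 and -0.23 ± 0.09. Blm and Rmi1, whose proteins act in 1 complex, thus differed in the size of their change, and Rmi1 shares 330 exon bases with the abundant Hnrnpk (85.5 FPKM) on the opposite strand.

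The MRN genes, whose complex senses and opens double-strand breaks, were lower by less than the minimum fold. Mre11a (ENSMUSG00000031928, chr9:14784654-14837123, plus strand), its nuclease, was at 6.38, 7.32 and 7.83 FPKM on 0d and 3.56, 3.51 and 3.7 FPKM on 5d in WT cells and 7.33, 6.1 and 7.19 FPKM on 0d and 4.26, 3.66 and 3.71 FPKM on 5d in PPARγ/+ cells. Its log2 fold change of -0.98 ± 0.11 (SE) in WT cells was just short of the threshold and passed it without WT_0d_1 (-1.06), while in PPARγ/+ cells it was -0.81 ± 0.10. Its exons share 154 bases with those of Ankrd49 on the opposite strand. Rad50 (ENSMUSG00000020380, chr11:53649519-53707319, minus strand), the ATPase of the complex, was at 11.2, 10.8 and 11.2 FPKM on 0d and 5.62, 5.9 and 7.11 FPKM on 5d in WT cells and 11, 10.4 and 11.7 FPKM on 0d and 7.03, 7.15 and 6.95 FPKM on 5d in PPARγ/+ cells, with log2 fold changes of -0.83 ± 0.11 and -0.64 ± 0.06. Nbn (ENSMUSG00000028224, chr4:15957925-15992589, plus strand), the subunit that recruits ATM, was at 13.6, 15 and 14.9 FPKM on 0d and 8.2, 9.39 and 10.6 FPKM on 5d in WT cells and 15.6, 13.4 and 14.3 FPKM on 0d and 9.42, 9.99 and 10.3 FPKM on 5d in PPARγ/+ cells, with log2 fold changes of -0.63 ± 0.11 and -0.54 ± 0.07. The days did not overlap for any of the 3 genes in either cell type, and the adjusted p was at most 0.0062 for each.

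The Ku genes code for the clamp on DNA ends that starts end joining, the route that also works outside S and G2 phase. Xrcc5 (ENSMUSG00000026187, chr1:72307421-72394952, plus strand), coding for Ku80, was the member with the highest level in every group, at 25.3, 28.6 and 29.2 FPKM on 0d and 23.4, 24.2 and 30.8 FPKM on 5d in WT cells and 24, 25.5 and 24.8 FPKM on 0d and 23.6, 23.4 and 21.1 FPKM on 5d in PPARγ/+ cells. The days overlapped in WT cells, and the log2 fold changes were -0.09 ± 0.12 (SE) and -0.13 ± 0.06, which turned to 0.04 and 0.00381 under median-ratio scaling and to 0.04 and 0.03 under quantile normalization. Xrcc6 (ENSMUSG00000022471, chr15:81987835-82040085, plus strand), coding for Ku70, was at 10.6, 10.8 and 11.8 FPKM on 0d and 7.1, 6.61 and 5.86 FPKM on 5d in WT cells and 10.8, 9.53 and 8.84 FPKM on 0d and 6.09, 5.91 and 6.01 FPKM on 5d in PPARγ/+ cells. Its days did not overlap, its log2 fold changes were -0.76 ± 0.10 and -0.68 ± 0.08, and its exons share 344 bases with those of Desi1 on the opposite strand.

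Of the 6 genes of the Fanconi core complex, Fanca and Fancb fell and the others did not pass. Fanca (ENSMUSG00000032815, chr8:123268300-123318576, minus strand), a scaffold subunit, was at 2.44, 2.6 and 2.98 FPKM on 0d and 0.379, 0.409 and 0.274 FPKM on 5d in WT cells and 2.23, 1.6 and 2.01 FPKM on 0d and 0.307, 0.372 and 0.285 FPKM on 5d in PPARγ/+ cells. It fell 6.14-fold and 4.83-fold, and it was lower in the 3 PPARγ/+_0d libraries than in any WT_0d library. Fancb (ENSMUSG00000047757, chrX:164980592-164997272, plus strand), a subunit of the catalytic module, was at 2.47, 3.77 and 4.6 FPKM on 0d and 0.632, 0.4 and 0.294 FPKM on 5d in WT cells and 3.26, 2.29 and 2.72 FPKM on 0d and 0.63, 0.53 and 0.379 FPKM on 5d in PPARγ/+ cells. It fell by 2.78 ± 0.32 (SE) and 2.23 ± 0.21 on the log2 scale, with the widest error of all members in WT cells. The exons of Fanca share 920 bases with those of Zfp276 on the opposite strand.

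Fancl (ENSMUSG00000004018, chr11:26386135-26471876, plus strand), the ubiquitin ligase of the core complex, was at 2.46, 3.1 and 3.64 FPKM on 0d and 1.36, 1.97 and 2.29 FPKM on 5d in WT cells and 3.77, 3.04 and 2.63 FPKM on 0d and 2.02, 2.04 and 2.14 FPKM on 5d in PPARγ/+ cells. The log2 fold changes were -0.70 ± 0.23 (SE) and -0.57 ± 0.14, with no overlap of the days and adjusted p-values of 0.0582 and 0.0144. The exons of Fancl share 462 bases with those of Vrk2 on the opposite strand. Fancm (ENSMUSG00000055884, chr12:65075603-65132058, plus strand), the translocase that anchors the complex to DNA and whose promoter is shown above, was at 2.16, 2.42 and 2.86 FPKM on 0d and 1.4, 1.37 and 1.32 FPKM on 5d in WT cells and 2.43, 1.9 and 2.31 FPKM on 0d and 1.51, 1.64 and 1.59 FPKM on 5d in PPARγ/+ cells. Its 3 PPARγ/+_5d libraries lay above the 3 WT_5d libraries, the 1 member for which they did (10.2% of all genes), and its log2 fold changes were -0.81 ± 0.15 and -0.45 ± 0.12. Fancc (ENSMUSG00000021461, chr13:63285043-63497278, minus strand), a core subunit, was at 1.26, 1.41 and 1.43 FPKM on 0d and 1.15, 1.1 and 1.36 FPKM on 5d in WT cells and 1.41, 1.54 and 1.65 FPKM on 0d and 1.41, 1.18 and 1.31 FPKM on 5d in PPARγ/+ cells. The days overlapped for Fancc in both cell types, with log2 fold changes of -0.18 ± 0.15 and -0.22 ± 0.13. Fancg (ENSMUSG00000028453, chr4:43002343-43010506, minus strand), which binds FANCA, was at 2.78, 1.93 and 2.2 FPKM on 0d and 2.07, 1.98 and 2.27 FPKM on 5d in WT cells and 2.55, 2.45 and 2.43 FPKM on 0d and 2.24, 2.16 and 2.38 FPKM on 5d in PPARγ/+ cells. The log2 fold changes were -0.11 ± 0.17 and -0.13 ± 0.09, and that in WT cells turned to 0.03 without WT_0d_1 and to 0.01 under median-ratio scaling.

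Both targets of the core complex fell in each cell type. Fancd2 (ENSMUSG00000034023, chr6:113531682-113597017, plus strand), the clamp that receives the ubiquitin, was at 2.29, 3.01 and 3.11 FPKM on 0d and 0.287, 0.333 and 0.221 FPKM on 5d in WT cells and 2.78, 1.87 and 2.25 FPKM on 0d and 0.243, 0.27 and 0.244 FPKM on 5d in PPARγ/+ cells. Its mean on 5d was 10.01% and 11% of that on 0d, and its fall of 2.75 ± 0.18 (SE) on the log2 scale was the largest of all members in PPARγ/+ cells. Fanci (ENSMUSG00000039187, chr7:79391929-79450264, plus strand), its partner, was at 2.24, 2.53 and 2.9 FPKM on 0d and 0.32, 0.305 and 0.251 FPKM on 5d in WT cells and 2.86, 1.69 and 2.17 FPKM on 0d and 0.309, 0.25 and 0.27 FPKM on 5d in PPARγ/+ cells. It fell by 2.76 ± 0.18 and 2.61 ± 0.21 on the log2 scale, and its exons share 921 bases with those of Polg on the opposite strand.

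Of the 4 checkpoint kinases the effectors Chek1 and Chek2 fell and the upstream kinases Atm and Atr did not pass. Chek1 (ENSMUSG00000032113, chr9:36708482-36727065, minus strand), the kinase that ATR activates, was at 3.19, 3.4 and 4.42 FPKM on 0d and 0.737, 0.604 and 0.606 FPKM on 5d in WT cells and 3.23, 2.22 and 2.71 FPKM on 0d and 0.583, 0.642 and 0.314 FPKM on 5d in PPARγ/+ cells. It fell 5-fold and 4.69-fold, and PPARγ/+_5d_3 was the lowest library. Chek2 (ENSMUSG00000029521, chr5:110839979-110874145, plus strand), the kinase that ATM activates, went from 5.93 ± 0.543 to 1.43 ± 0.266 FPKM (SD, n = 3) in WT cells and from 5.95 ± 0.626 to 1.5 ± 0.201 in PPARγ/+ cells, 3.96-fold and 3.78-fold lower. Atm (ENSMUSG00000034218, chr9:53439149-53536740, minus strand) was at 2.11, 1.89 and 2.7 FPKM on 0d and 1.17, 1.08 and 1.36 FPKM on 5d in WT cells and 2.07, 1.56 and 1.89 FPKM on 0d and 1.47, 1.24 and 1.21 FPKM on 5d in PPARγ/+ cells. Atr (ENSMUSG00000032409, chr9:95857597-95951781, plus strand) was at 0.908, 1.08 and 0.94 FPKM on 0d and 0.562, 0.514 and 0.68 FPKM on 5d in WT cells and 1.1, 0.772 and 1.04 FPKM on 0d and 0.733, 0.598 and 0.538 FPKM on 5d in PPARγ/+ cells. For both upstream kinases the 5d libraries lay below the 0d libraries, with log2 fold changes of -0.83 ± 0.18 (SE) and -0.46 ± 0.15 for Atm and -0.65 ± 0.18 and -0.56 ± 0.19 for Atr.

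Of the 3 mediators that link ATR to CHEK1, Clspn and Topbp1 fell and Atrip did not pass. Clspn (ENSMUSG00000042489, chr4:126556935-126593903, plus strand), the adaptor on which CHEK1 is phosphorylated, was at 6.36, 8.09 and 9.98 FPKM on 0d and 1.43, 0.93 and 0.935 FPKM on 5d in WT cells and 7.76, 5.41 and 5.73 FPKM on 0d and 1.09, 1.06 and 0.914 FPKM on 5d in PPARγ/+ cells. It fell 6.89-fold and 5.65-fold. Topbp1 (ENSMUSG00000032555, chr9:103305215-103350428, plus strand), which switches ATR on, went from 11 ± 0.662 to 2.56 ± 0.154 FPKM (SD, n = 3) in WT cells and from 8.53 ± 1.1 to 2.58 ± 0.0956 in PPARγ/+ cells. It fell by 2.06 ± 0.09 (SE) and 1.68 ± 0.11 on the log2 scale, with the smallest p of all members in WT cells (2.99e-07, adjusted p = 0.000163). Atrip (ENSMUSG00000025646, chr9:109057933-109074124, minus strand), the partner that holds ATR on single strands, was the lowest of all members in every group, at 0.0773, 0.119 and 0.0728 FPKM on 0d and 0.118, 0.0582 and 0.0576 FPKM on 5d in WT cells and 0.107, 0.0934 and 0.12 FPKM on 0d and 0.0994, 0.113 and 0.0605 FPKM on 5d in PPARγ/+ cells. The days overlapped in both cell types, its values rested on as few as 6 fragments, and its log2 fold changes were -0.10 ± 0.25 and -0.12 ± 0.22, so that a change of its level was not detectable at this depth. Without WT_0d_2 its change in WT cells was 0.01, and 1147 of its exon bases are shared with Trex1 on the same strand, which was listed at 0 in each library.

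The 2 mismatch repair genes fell in WT cells and missed the minimum fold in PPARγ/+ cells. Msh6 (ENSMUSG00000005370, chr17:87975062-87990892, plus strand), which reads mismatches, was at 15.1, 16.3 and 19.3 FPKM on 0d and 7.15, 6.72 and 8.16 FPKM on 5d in WT cells and 15, 11.5 and 12.1 FPKM on 0d and 7.22, 7.04 and 7.34 FPKM on 5d in PPARγ/+ cells. The 3 PPARγ/+_0d libraries lay below the 3 WT_0d libraries, and its log2 fold changes were -1.19 ± 0.12 (SE) and -0.82 ± 0.10. Pms2 (ENSMUSG00000079109, chr5:143909964-143933968, plus strand), the nuclease subunit that acts after recognition, was at 1.69, 1.69 and 1.76 FPKM on 0d and 0.779, 0.709 and 0.806 FPKM on 5d in WT cells and 1.84, 1.58 and 1.72 FPKM on 0d and 0.921, 0.877 and 0.749 FPKM on 5d in PPARγ/+ cells. The log2 fold changes were -1.07 ± 0.14 and -0.94 ± 0.13, close to the minimum fold on either side of it. Pms2 missed it in WT cells with a pseudocount of 1 (-0.62) and under median-ratio scaling. In PPARγ/+ cells Pms2 passed it with a pseudocount of 0.01 (-1.01) and under quantile normalization (-1.03). The difference between the cell types in the change was 0.37 for Msh6 (adjusted p = 0.412) and 0.13 for Pms2 (adjusted p = 0.826), so that the calls differ where the changes were not shown to.

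**Figure D2:**
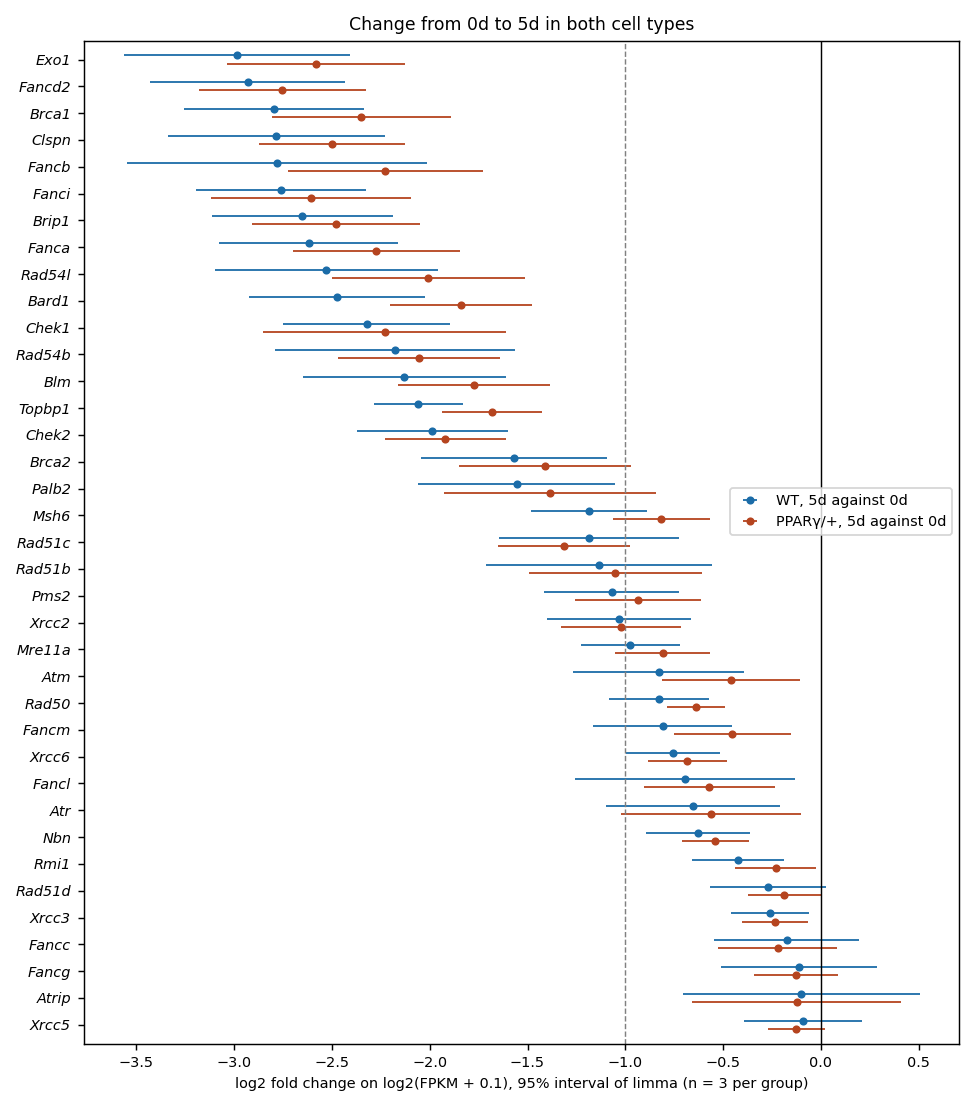
Log2 fold change from 0d to 5d of each member (rows, ordered by the change in WT cells) on the log2(FPKM + 0.1) scale, with 95% intervals of limma, in WT cells (blue) and PPARγ/+ cells (red), n = 3 libraries per group. The dashed line marks the minimum fold of 2, and the points run from -2.99 for Exo1 to -0.09 for Xrcc5 in WT cells.

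The cell types were compared next, since the study asked how overexpressed PPARγ alters differentiation. No member passed between PPARγ/+ and WT cells on 0d at an adjusted p no higher than 0.05 and 2-fold or more, where 1.39% of all genes were lower and 0.571% higher by limma. At an unadjusted p under 0.05, 5 members were lower in PPARγ/+ cells and 0 higher (10.3% and 11.0% of all genes). The 5 were Bard1, Rad54l, Fanca, Topbp1 and Msh6, with log2 differences of -0.48, -0.54, -0.45, -0.36 and -0.40. The nearest to the threshold was Topbp1, at 10.4, 10.8 and 11.7 FPKM in WT_0d and 9.51, 7.33 and 8.75 FPKM in PPARγ/+_0d (adjusted p = 0.0611). Msh6 had an adjusted p of 0.0793. The libraries did not overlap for 5 members, all lower in PPARγ/+ cells (13.1% of all genes), which were Rad54l, Rmi1, Fanca, Topbp1 and Msh6. The fitted difference was negative for 28 of the 37 members, where 46.3% of all genes were lower, with a median of -0.13 (all genes 0.02). The median difference of the 19 cycling markers on 0d was -0.20, and its part in that of the members was not tested. The 95% intervals of the members ran from -1.03 to 0.66.

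On 5d no member passed between the cell types, where 0.533% of all genes were lower and 0.571% higher by limma, and no member had an unadjusted p under 0.05 (7.48% lower and 7.87% higher). The median difference was 0.08 (all genes 0.02, cycling markers -0.09), with 25 members higher in PPARγ/+ cells and 12 lower, where 45.3% of all genes were lower. The largest differences were -0.33 for Chek1 (95% interval -0.84 to 0.18) and 0.20 for Fancb (-0.41 to 0.82). The 95% intervals of the members ran from -0.84 to 0.82 on the log2 scale.

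The change with the day was not shown to differ between the cell types for any member. In the interaction of cell type and day, which sets the change of PPARγ/+ cells against that in WT cells over the 12 libraries, 0 members passed an adjusted p of 0.05 by limma, where 0.583% of all genes had a higher and 0.178% a lower change in PPARγ/+ cells. At an unadjusted p under 0.05, 3 members were higher (6.82% of all genes) and 0 lower (5.18%). They were Bard1, at 0.63 ± 0.24 (SE, 95% interval 0.10 to 1.16, adjusted p = 0.316), Topbp1, at 0.38 ± 0.14 (adjusted p = 0.314), and Msh6, at 0.37 ± 0.17. The fitted difference was positive for 32 of the 37 members, called or not, with a median of 0.16 (all genes -0.01, of which 51.2% were negative). The median of the 19 cycling markers in the interaction was 0.30. The 95% intervals ran from -0.77 to 1.42. With limma's array weights, which count libraries that stand apart for less, Topbp1 (0.42) and Msh6 (0.56) passed. Under these weights 2070 of the 18023 genes tested passed, against 137 without them, and the fit of the weights stopped before its convergence tolerance. The 2 passes are thus not particular to the members. The 3 comparisons between the cell types share their libraries with those between the days.

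**Figure D3:**
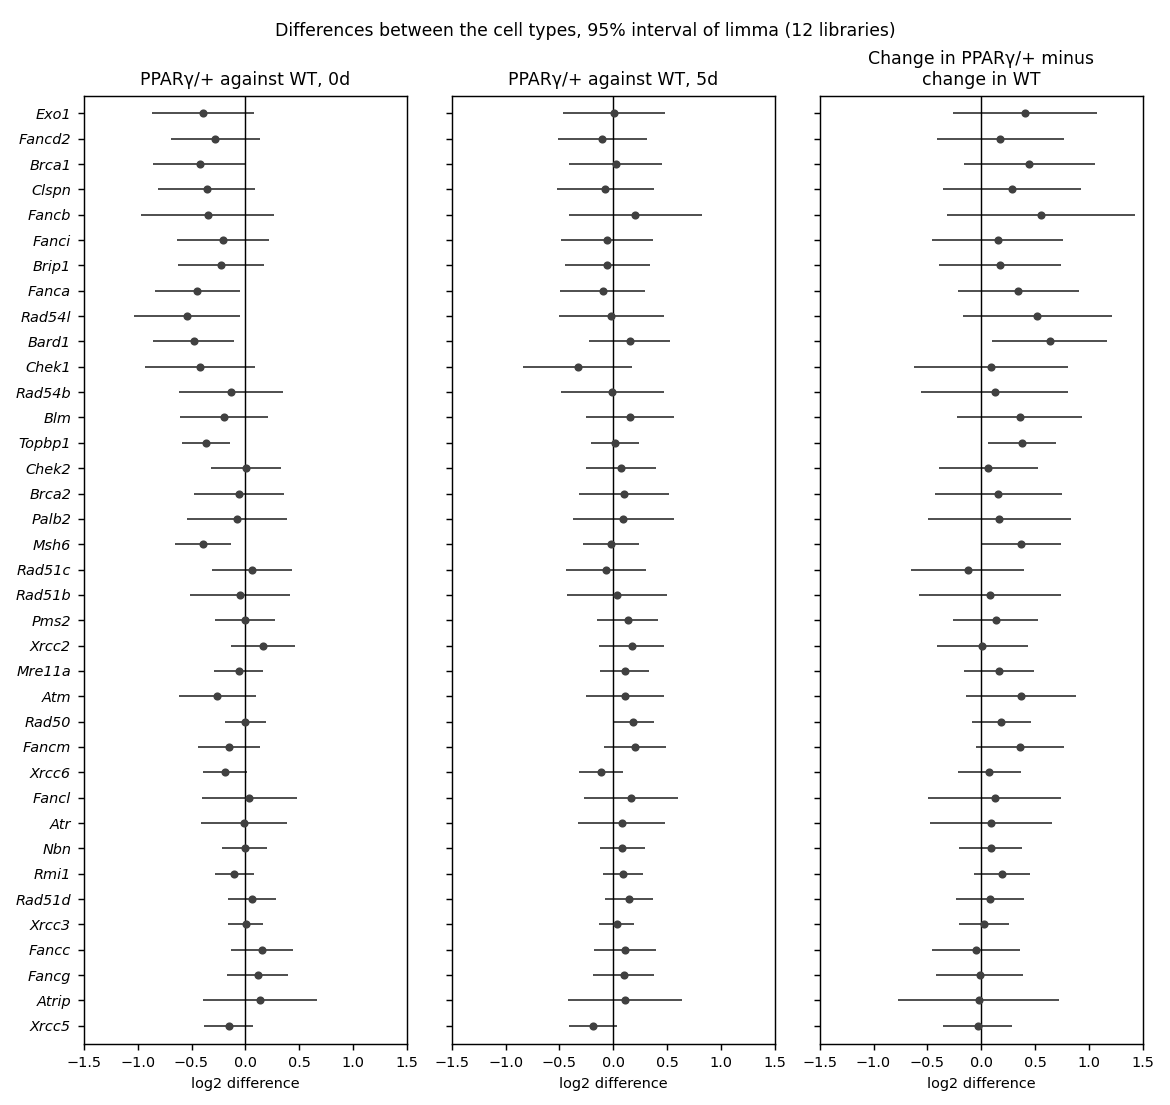
Log2 difference of PPARγ/+ from WT cells on 0d (left) and 5d (middle), and the difference between the 2 changes with the day (right), for each member in the same order as in the plot of changes, with 95% intervals of limma over the 12 libraries. On 0d 28 points lie left of 0 and on the right panel 32 lie right of it, and no member passed an adjusted p of 0.05.

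Single libraries moved the members together. On 0d, WT_0d_1 was the lowest of its 3 libraries for 30 of the 37 members, with a median deviation from the group mean of -0.16 on the log2 scale, and WT_0d_3 was the highest for 26 (0.15). PPARγ/+_0d_2 was the lowest for 29 members (-0.20) and PPARγ/+_0d_1 the highest for 29 (0.16). Such counts were not made over all genes. The median deviation of all genes tested was 0.02 in WT_0d_1, -0.01 in WT_0d_3, 0.02 in PPARγ/+_0d_2 and -0.02 in PPARγ/+_0d_1. The cycling markers deviated the same way in these libraries, by -0.24, 0.10, -0.26 and 0.26. In WT_0d, however, the markers were highest in WT_0d_2 (0.15), where the members stood at 0.03. On 5d the median deviation of the members was between -0.04 and 0.03 in each library, although WT_5d_3 was low for the cycling markers (-0.29) and the WT_5d libraries were the furthest apart over all genes (r between 0.961 and 0.977). Without PPARγ/+_0d_2 the median difference of the members on 0d was -0.05 in place of -0.13 and the median of the interaction 0.08 in place of 0.16. Without WT_0d_3 they were -0.06 and 0.10, and without WT_0d_1 they moved the other way, to -0.22 and 0.27. The median of the interaction was 0.24 without PPARγ/+_0d_1. On 5d the median difference was 0.04 in place of 0.08 without WT_5d_3 or PPARγ/+_5d_1. Without WT_0d_1 the median change in WT cells was -1.35, and without WT_0d_3 it was -1.06. The part of these libraries' cycling markers in the members' deviations was not tested.

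**Figure D4:**
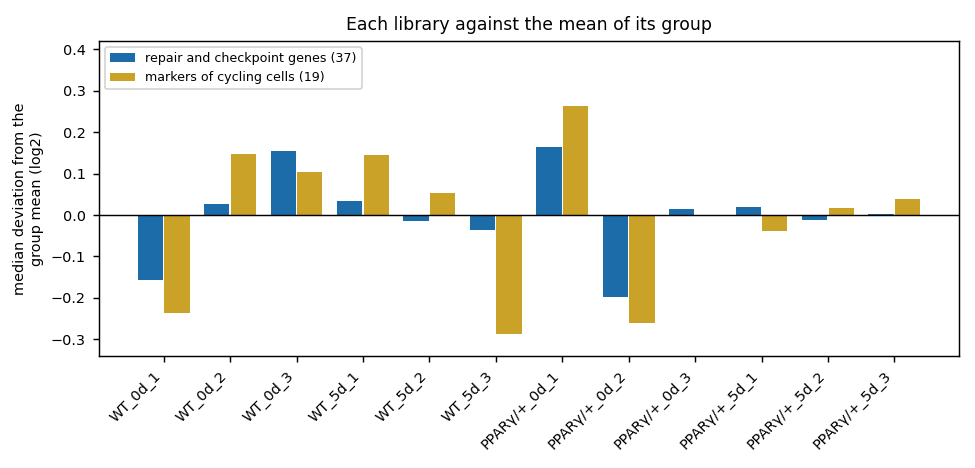
Median deviation of each library from the mean of its group (log2), over the 37 members (blue bars) and over 19 markers of cycling cells (yellow bars), with 12 libraries along the axis. WT_0d_1 and PPARγ/+_0d_2 stand lowest for the members, at -0.16 and -0.20, and PPARγ/+_0d_1 and WT_0d_3 highest, at 0.16 and 0.15.

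Genes of the same pathways that are no members were counted by lists. Of 35 other recombination and Fanconi genes, 16 fell and 0 rose in WT cells and 15 fell and 0 rose in PPARγ/+ cells, with medians of -0.74 and -0.69. The largest falls in WT cells were those of Eme1, a subunit of a nuclease that cuts joint molecules (-3.08 ± 0.16, SE), Recql4, a helicase (-2.98 ± 0.14), and Fignl1, an ATPase of recombination (-2.81 ± 0.23). The largest falls in PPARγ/+ cells were those of Eme1 (-3.38 ± 0.22), Rad51ap1, a factor of strand exchange (-2.57 ± 0.17), and Gen1, a resolvase (-2.57 ± 0.18). Of 19 other genes of checkpoint signalling, 13 fell in WT cells and 10 in PPARγ/+ cells, and 0 rose in either. Cdc25c, the phosphatase that CHEK1 and CHEK2 inhibit, had the largest fall in both (-3.68 ± 0.26 and -3.80 ± 0.12), followed in WT cells by Timeless, of the fork protection complex (-2.49 ± 0.16), and in both by Rfc5, a clamp loader subunit (-2.33 ± 0.13 and -2.18 ± 0.15).

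Other repair routes had few members that fell. Of 20 genes of end joining and break signalling, Polq, the polymerase of microhomology-mediated joining, H2afx, the histone variant that ATM marks, and Mdc1, which reads that mark, fell in both cell types and 0 rose. Their log2 fold changes in WT cells were -2.75, -2.27 and -1.46, and the medians of the list were -0.42 and -0.34. Of 25 genes of base and nucleotide excision repair tested, Neil3, Ung and Mutyh fell in both cell types, all 3 of base excision, with medians of the list of -0.24 and -0.25. Tdg, a thymine glycosylase, was the 1 gene of these lists that passed in the interaction, at 0.71 ± 0.12 (adjusted p = 0.0259), with 3.69, 3.73 and 3.79 FPKM on 0d and 2.08, 2.02 and 2.1 FPKM on 5d in WT cells and 2.78, 2.93 and 2.81 FPKM on 0d and 2.68, 2.74 and 2.43 FPKM on 5d in PPARγ/+ cells. These lists were written from general knowledge with earlier results of these data known, and their counts stand beside 7.53% of all genes in WT cells and 6.06% in PPARγ/+ cells.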

How the data were processed

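RNA of 12 libraries in 4 groups of 3 was analysed. The labels do not say how the cultures of a group were separated, so p-values measure the spread between libraries. According to the study's methods the authors used Trim Galore on the paired reads, STAR against GRCm38 and HTSeq counts of Ensembl genes, and deposited FPKM values, while the submitters' processing notes name mm9. The deposited table holds no coordinates, and those printed are of GRCm38 from GENCODE M21. A second deposited table with log2 values of the authors was not used.

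Tests used limma 3.58.1 in R 4.3.3 (empirical Bayes with a trend) on log2(FPKM + 0.1) of the 18023 genes with at least 0.1 FPKM in at least 3 libraries, with Benjamini-Hochberg adjustment over these genes. The days were compared within the 6 libraries of a cell type (unadjusted p of at most 0.05 and a fold of at least 2), the interaction over 12 libraries (adjusted p of at most 0.05), and the cell types on each day over 12 libraries (adjusted p of at most 0.05 and a fold of at least 2). An exact permutation test of 3 libraries against 3 cannot go below 0.1 and was not used. Fragments were recovered as FPKM times exonic length times mapped fragments, whole within 0.02 for 21320 of 27138 expressed genes by annotated length and for 5596 by the smallest step, and were used for depth only. The fits were run on simulated data of 17801 genes, of which 200 were changed. In the comparisons of the days 76.5% (WT) and 80.5% (PPARγ/+) of these were recovered, and 177 and 148 unchanged genes were called. The simulated libraries were independent, with the same dispersion for all genes. They held no shifts of whole libraries, so error rates in the real data were not measured.

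The 37 members and all gene lists were chosen with earlier results of these data known. Values in every library were given for members called between cell types or in the interaction, for the 10 largest changes in WT cells, for the largest and smallest change of each role, and for members called in neither cell type. Other genes were named by the 3 largest changes of a list. Alternatives were pseudocounts of 1 and 0.01, no filter, a filter of 1 FPKM, median-ratio scaling, quantile normalization, the replicate number as a block, array weights, 12 libraries in each fit, other thresholds, and leaving out each library. Python 3.11.15 with pandas 2.3.3 and numpy 2.4.6 was used for tables and matplotlib 3.10.9 for figures.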

Additional observations from a re-analysis of the deposited data

How the results depend on the processing

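Of the 37 members, between 21 and 23 fell in WT cells and between 18 and 20 in PPARγ/+ cells when each library was left out in turn, and 0 passed in the interaction or between the cell types. Over all genes, between 2765 and 3057 and between 2535 and 2829 were then called in either direction. The share of all genes that fell was worked out for the main setting only. A pseudocount of 1 left 16 that fell in WT cells and 13 in PPARγ/+ cells, which by construction shrinks changes of low genes, with medians of -0.80 and -0.71 (with a pseudocount of 0.01, -1.18 in PPARγ/+ cells). With a pseudocount of 1 the genes called in either direction went from 2970 to 1441 in WT cells and from 2735 to 1241 in PPARγ/+ cells. Median-ratio scaling moved the median of all genes from -0.08 to 0.02 in WT cells and from -0.10 to 0.02 in PPARγ/+ cells. It gave a median of the members of -1.06 in WT cells, and the calls of Xrcc2 and Pms2 in WT cells and of Rad51b and Xrcc2 in PPARγ/+ cells were lost. Quantile normalization gave a median of -1.18 in PPARγ/+ cells. With an adjusted p and no minimum fold, 31 members passed in PPARγ/+ cells. With a library left out the median ran from -1.35 to -1.06 in WT cells and from -1.19 to -0.97 in PPARγ/+ cells. The fitted change turned positive for Xrcc5 under median-ratio scaling (0.0361 in WT cells, 0.00381 in PPARγ/+ cells) and quantile normalization (0.0407 and 0.0309), and in WT cells for Fancg under median-ratio scaling (0.0116). With a library left out, the change in WT cells ran from -0.22 to 0.0276 for Fancg, the highest without WT_0d_1, and from -0.26 to 0.00589 for Atrip, the highest without WT_0d_2. Array weights, whose fit stopped before its convergence tolerance, gave 2 members in the interaction, where 2070 of all genes passed. The cause of these shifts was not tested.

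Over all genes the counts moved more. Called genes in WT cells were 2970, and 1441 with a pseudocount of 1 and 6681 with an adjusted p and no minimum fold. In PPARγ/+ cells they were 2735, and 1241 with a pseudocount of 1, 1806 with a filter of 1 FPKM, which tests fewer genes, and 8569 with an adjusted p and no minimum fold. In the interaction they were 137, and 2070 with array weights, and ran from 42 to 527 with a library left out, the most without WT_5d_3. Between the cell types on 0d they were 353, and 120 with a pseudocount of 1, 555 with array weights, 1005 without a minimum fold, and from 180 to 491 with a library left out. On 5d they were 199, and 95 with a pseudocount of 1, 93 with a filter of 1 FPKM, 1363 with array weights, and from 78 to 796 with a library left out, the most without WT_5d_3. Same-numbered libraries of different groups deviated together by r between -0.07 and 0.08, and differently numbered ones by r between -0.12 and 0.10. No pairing by number was seen, which does not exclude that the cultures were handled as pairs. With the replicate number as a block, 22 and 20 members fell and 0 passed in the interaction, and the interaction held 61 genes over all. Depth limits Atrip most, with as few as 6 fragments in a library.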
